A study of Mus musculus with 6 samples.

Results

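Retinoid metabolism in mouse white fat was followed through 9 genes of retinol binding, oxidation, esterification and clearance: Crabp2, Stra6, Adh1, Dhrs3, Aldh1a1, Aldh1a2, Aldh1a3, Lrat and Cyp26b1. They were chosen by symbol in the platform annotation, were read by 12 probe sets, and stand among 18193 genes that the arrays read by a probe set of 1 symbol. White fat of the epididymal pad, labelled as visceral and gonadal, came from male C57BL/6 mice aged 16 weeks that had free access to a chow diet. AFO mice carried Adiponectin-cre together with FTO flox/flox, and control mice carried FTO flox/flox without the Cre, so both genotypes share the floxed alleles and the strain. Adiponectin regulatory sequence drives Cre in fat cells, whereas the RNA was taken from whole tissue, which also holds stromal, vascular, immune and mesothelial cells. Each genotype was represented by 3 arrays, each labelled as a pool with a number of its own and as a biological replicate. That there are only 3 per genotype limits how small a difference can be seen, and where pools share mice or handling the p-values measure only the spread between these arrays.

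Retinol, the alcohol form of vitamin A, circulates bound to a carrier protein, enters cells and is stored there as retinyl ester. Alcohol and short-chain dehydrogenases convert retinol to retinal and back, and the aldehyde dehydrogenases of the Aldh1a family oxidise retinal irreversibly to retinoic acid. Retinoic acid is carried to nuclear receptors that switch genes on or off, and enzymes of the Cyp26 family clear it. Fat is a store of retinyl ester, and in mice retinaldehyde and Aldh1a enzymes are known to affect fat cell differentiation and the amount of visceral fat.

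The values are log2 expression levels made by RMA, which brings all arrays to nearly the same distribution (array medians 5.35 to 5.43). Fto, the floxed gene, read 6.13, 5.45 and 5.95 in AFO pools 1, 2 and 3, against 6.11, 6.20 and 5.59 in control pools 1, 2 and 3. These genotypes overlapped (difference -0.12, SE 0.25, limma adjusted p 0.999999), and without knowing the floxed exon a probe set cannot check the deletion, so the genotype rests on the labels. AFO pool 2 and control pool 2 lay away from the other 4 arrays on a first principal component with 67.6% of the variance. Adipocyte markers were high on every array (mean level of 8 genes 10.99 to 11.39 in AFO and 11.19 to 11.38 in control fat). Markers of visceral fat were not: the mean level of 7 genes was 8.30 and 8.47 in AFO pools 1 and 3 and 8.55 and 8.59 in control pools 1 and 3, but 5.05 in AFO pool 2 and 5.14 in control pool 2. Wt1, Tcf21 and Bnc1, transcription factors that define that depot, were among the low ones, so the pool 2 arrays went against their tissue label. Results are therefore also given without them. In RNA of whole tissue, fewer cells of a type and less RNA per cell cannot be told apart.

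None of the 9 genes passed the test between AFO and control fat. Of the 9 genes 7 lay above the detection filter, a mean over the 6 arrays at the 40th percentile of all probe sets (4.88), while Crabp2 and Lrat lay below it. None of the 7 passed at an adjusted p under 0.05 by limma, and 0 had an unadjusted p under 0.05, where 139 of 13453 genes (1.03%) did and 0% passed. In 0 of the 7 did the 3 AFO values lie outside the 3 control values, against 3.50% of all genes tested. The 7 differences ran from -0.15 for Stra6 to 0.15 for Aldh1a1, with a median of 0.018, beside a median of -0.014 over all genes tested. The values followed the pool instead: 5 of the 7 were lowest and 2 were highest in pool 2 of both genotypes.

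**Figure D1:**
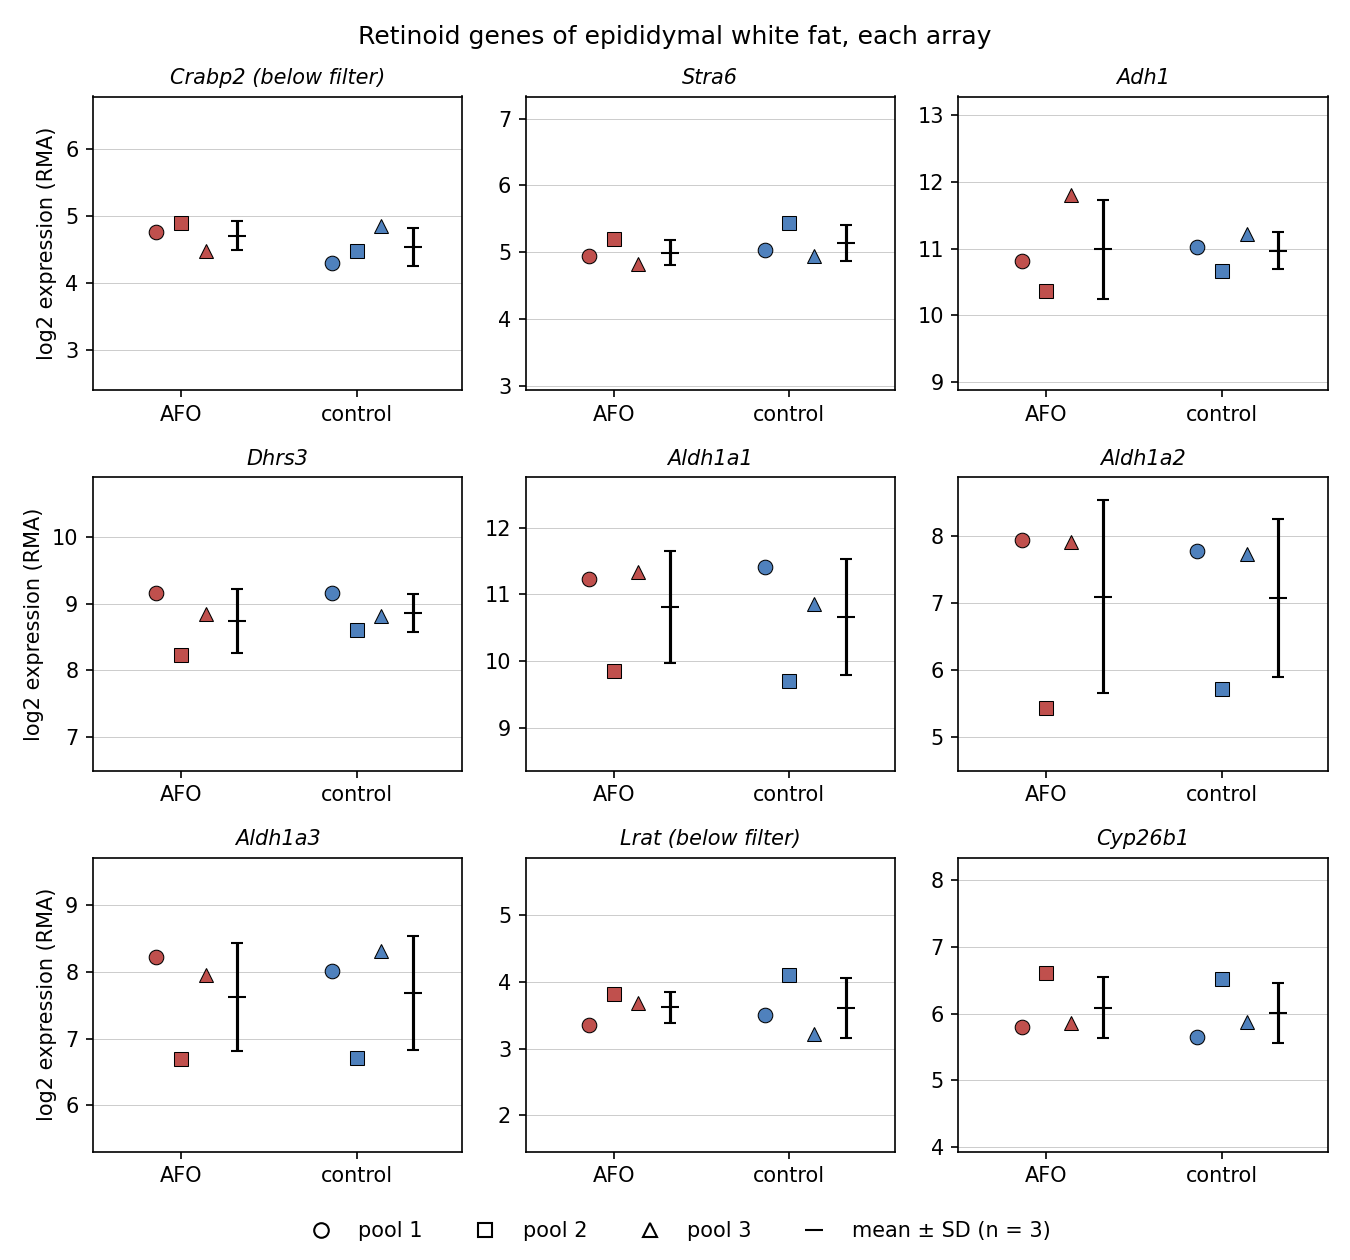
Log2 expression of the 9 retinoid genes on each array, 1 panel per gene with axes of equal span, for AFO (left) and control (right). Symbols mark the RNA pool and bars give the mean ± SD of 3 arrays. Pool 2 lies lowest in both genotypes for Adh1, Dhrs3, Aldh1a1, Aldh1a2 and Aldh1a3, and highest for Stra6, Lrat and Cyp26b1, and no gene separates the genotypes.

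Uptake and transport of retinoids were read by Stra6 and Crabp2, and both signals were dim. Stra6, the membrane receptor that takes up retinol from its plasma carrier, read 4.95, 5.19 and 4.83 in AFO pools 1, 2 and 3, against 5.03, 5.44 and 4.94 in control pools 1, 2 and 3. Each AFO value lay below the control value of the same pool, but the genotypes overlapped. Stra6 averaged 4.99 ± 0.19 in AFO against 5.14 ± 0.27 in control fat (SD, n = 3 each), a difference of -0.15 (SE 0.18, 95% interval -0.58 to 0.29, limma adjusted p 0.999999). Its mean lay just above the filter of 4.88, and RMA values are known to compress differences between dim signals. Crabp2, which carries retinoic acid to its nuclear receptors, read 4.76, 4.90 and 4.47 in AFO and 4.29, 4.48 and 4.85 in control pools 1, 2 and 3. Its AFO value was above that of control in pools 1 and 2 and below it in pool 3. Tested with no filter, the difference was 0.17 (SE 0.19, 95% interval -0.28 to 0.62, limma adjusted p 0.999979).

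The step between retinol and retinal was read by Adh1 and Dhrs3, which act in opposite directions and were both bright. Adh1, an alcohol dehydrogenase that can oxidise retinol to retinal, read 10.81, 10.36 and 11.80 in AFO pools 1, 2 and 3, against 11.03, 10.67 and 11.22 in control pools 1, 2 and 3. The AFO arrays spread more widely and held both the lowest and the highest value. Adh1 averaged 10.99 ± 0.74 in AFO against 10.97 ± 0.28 in control fat (SD, n = 3 each), and differed by 0.018 (SE 0.37, 95% interval -0.87 to 0.91, limma adjusted p 0.999999). Within pools the difference was -0.22, -0.31 and 0.58, so its sign was not shared. Dhrs3, the short-chain dehydrogenase that turns retinal back into retinol, read 9.16, 8.22 and 8.84 in AFO pools 1, 2 and 3, against 9.17, 8.60 and 8.81 in control pools 1, 2 and 3. The genotypes were nearly level in pools 1 and 3, and AFO lay lower in pool 2 alone (difference -0.38). Dhrs3 differed by -0.12 overall (SE 0.27, 95% interval -0.77 to 0.54, limma adjusted p 0.999999), and by 0.015 without the 2 pool 2 arrays (SE 0.20).

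The Aldh1a enzymes, which make retinoic acid from retinal, separated pool 2 from the other pools and not AFO from control. Aldh1a1, the form known from mouse fat cells, read 11.23, 9.85 and 11.34 in AFO pools 1, 2 and 3, against 11.41, 9.70 and 10.85 in control pools 1, 2 and 3. Aldh1a2, the main form of the embryo and also of mesothelium, read 7.95, 5.43 and 7.92 in AFO pools 1, 2 and 3, against 7.79, 5.71 and 7.73 in control pools 1, 2 and 3. In both genes the pool 2 arrays were the 2 lowest of the 6. Aldh1a3 read 8.22, 6.70 and 7.96 in AFO pools 1, 2 and 3, against 8.02, 6.71 and 8.32 in control pools 1, 2 and 3, again with both pool 2 arrays lowest. Below the mean of pools 1 and 3, pool 2 stood at -1.44 in AFO and -1.43 in control fat for Aldh1a1, at -2.50 and -2.05 for Aldh1a2, and at -1.39 and -1.46 for Aldh1a3.

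Between genotypes the 3 enzymes differed by far less than that. Aldh1a1 averaged 10.81 ± 0.83 in AFO against 10.66 ± 0.87 in control fat, Aldh1a2 7.10 ± 1.45 in AFO against 7.08 ± 1.18 in control fat, and Aldh1a3 7.63 ± 0.81 in AFO against 7.68 ± 0.85 in control fat (SD, n = 3 each). The differences were 0.15 (SE 0.55) for Aldh1a1, 0.020 (SE 0.85) for Aldh1a2 and -0.056 (SE 0.54) for Aldh1a3, each with a limma adjusted p of 0.999999. Because the pools differ so much, the 95% intervals of this unpaired fit are wide, from -2.02 to 2.06 for Aldh1a2, or 0.247-fold to 4.17-fold. Without the pool 2 arrays the same gene differed by 0.17 (SE 0.16, 95% interval -0.19 to 0.53), with 2 arrays per genotype left. The other 2 probe sets of Aldh1a3 lay above the filter too and were dimmer. One read 6.89, 5.88 and 6.45 in AFO and 6.75, 6.18 and 6.93 in control pools 1, 2 and 3, and the other 5.53, 4.45 and 4.99 in AFO and 5.32, 4.95 and 5.83 in control pools 1, 2 and 3. All 3 probe sets of Aldh1a3 were lowest in pool 2 of both genotypes, and tested singly with no filter the 2 dimmer ones differed by -0.22 (SE 0.31) and -0.38 (SE 0.33), neither passing.

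Storage and clearance were read by Lrat and Cyp26b1. Lrat, which esterifies retinol in liver, eye and other tissues, was near the bottom of the scale on both its probe sets. The brighter one read 3.36, 3.81 and 3.69 in AFO pools 1, 2 and 3, against 3.51, 4.10 and 3.22 in control pools 1, 2 and 3, and the dimmer one ran from 2.67 to 3.31 in AFO and from 2.70 to 3.15 in control fat. Neither separated the genotypes, and with no filter the brighter one differed by 0.0095 (SE 0.24, 95% interval -0.57 to 0.59, limma adjusted p 0.999979). Cyp26b1, which oxidises retinoic acid for clearance, read 5.80, 6.61 and 5.86 in AFO pools 1, 2 and 3, against 5.65, 6.52 and 5.87 in control pools 1, 2 and 3. Its pattern was the mirror of the Aldh1a genes, with the pool 2 arrays highest, 0.79 above the mean of the other pools in AFO and 0.76 above it in control fat. Cyp26b1 averaged 6.09 ± 0.46 in AFO against 6.01 ± 0.45 in control fat (SD, n = 3 each), a difference of 0.078 (SE 0.31, 95% interval -0.67 to 0.82, limma adjusted p 0.999999).

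The opposite pool patterns of the Aldh1a genes and Cyp26b1 are the reason for showing their start sites. RefSeq windows (GRCm38.p6) of the 250 bases before the start were at hand for 7 of the 9 genes, 13 windows in all, and those of Aldh1a1 (at the 1 of its 2 starts where a receptor hexamer was matched), Aldh1a2 and Cyp26b1 are printed 5′ to 3′. Capitals mark matches on either strand to TATAAA, to CCAAT, to GGGCGG, or to any of 4 hexamers of retinoid receptors, which were AGGTCA as well as GGGTCA, and also AGTTCA as well as GGTTCA.
Aldh1a1, chr19:20601718-20601967, plus strand: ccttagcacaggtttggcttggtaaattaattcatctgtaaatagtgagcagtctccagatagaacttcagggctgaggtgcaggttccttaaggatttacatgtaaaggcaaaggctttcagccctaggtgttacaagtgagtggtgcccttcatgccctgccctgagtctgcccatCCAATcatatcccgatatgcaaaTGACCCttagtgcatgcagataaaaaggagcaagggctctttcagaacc
Aldh1a2, chr9:71215539-71215788, plus strand: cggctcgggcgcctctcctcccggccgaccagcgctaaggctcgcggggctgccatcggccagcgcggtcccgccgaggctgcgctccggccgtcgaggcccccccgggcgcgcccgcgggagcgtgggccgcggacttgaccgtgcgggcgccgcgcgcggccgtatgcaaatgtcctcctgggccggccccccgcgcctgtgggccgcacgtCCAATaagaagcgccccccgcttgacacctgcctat
Cyp26b1, chr6:84593811-84594060, minus strand: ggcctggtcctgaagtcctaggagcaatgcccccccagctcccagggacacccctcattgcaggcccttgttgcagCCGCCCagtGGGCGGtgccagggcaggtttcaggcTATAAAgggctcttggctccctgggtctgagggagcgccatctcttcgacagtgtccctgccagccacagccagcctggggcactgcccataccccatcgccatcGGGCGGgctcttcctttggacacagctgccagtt
The Aldh1a1 window held CCAAT 72 bases and GGGTCA (on the other strand) 49 bases before the start, and the Aldh1a2 window held CCAAT 36 bases before it. The Cyp26b1 window held TATAAA 139 bases before the start and GGGCGG 174, 165 and 34 bases before it, the first of these on the other strand. Of all 32851 RefSeq windows of this length, 12.4% hold TATAAA, 33.8% CCAAT, 32.7% GGGCGG and 38.6% at least 1 of the 4 hexamers. Among the 13 windows of the retinoid genes only the one printed for Aldh1a1 held such a hexamer, and no window was at hand for Aldh1a3. Direct repeats of a hexamer with a spacer of 1, 2 or 5 bases, the arrangements retinoid receptors are known to bind, were matched in 0 of the 13 windows, and 0.164%, 0.174% and 0.0883% of all windows hold them. A match is a description of the letters only, and which start is used in fat was not tested.

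Both genotypes carry pool numbers 1 to 3, and arrays of equal number deviated from their genotype means together. For pools 1 and 3 the shared shift of pool 2 alone would make them do so, in either order. The comparison was also fitted with pool number as a block, a choice made with these values known. With it 2 of 13453 genes passed (0.0149%), neither of them a retinoid gene, and 581 (4.32%) had an unadjusted p under 0.05. Of the 7 retinoid genes 0 passed and 0 had an unadjusted p under 0.05 (limma adjusted p 0.990 to 0.996). Without the pool 2 arrays 0 of the 7 passed, where 0.676% of all genes did, and with the block as well 0 passed, where 2.01% did. With all 6 arrays the block left the differences as they were and narrowed their 95% intervals. The narrower intervals hold only as far as the pool numbers do pair the arrays. Aldh1a2 then ran from -0.32 to 0.36, or 0.803-fold to 1.28-fold in AFO over control fat. Aldh1a1 ran from 0.875-fold to 1.41-fold, Aldh1a3 from 0.760-fold to 1.22-fold and Cyp26b1 from 0.867-fold to 1.28-fold. The other 3 ran from 0.735-fold to 1.11-fold for Stra6, 0.739-fold to 1.39-fold for Adh1 and 0.751-fold to 1.13-fold for Dhrs3. Changes within these intervals are therefore not excluded, and a p that misses the threshold does not show equal levels. The smallest change that 3 pools could detect was not computed. For each of the 7 genes the sign turned when at least 1 single array was left out, with AFO or control pool 2 among those arrays in every case.

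**Figure D2:**
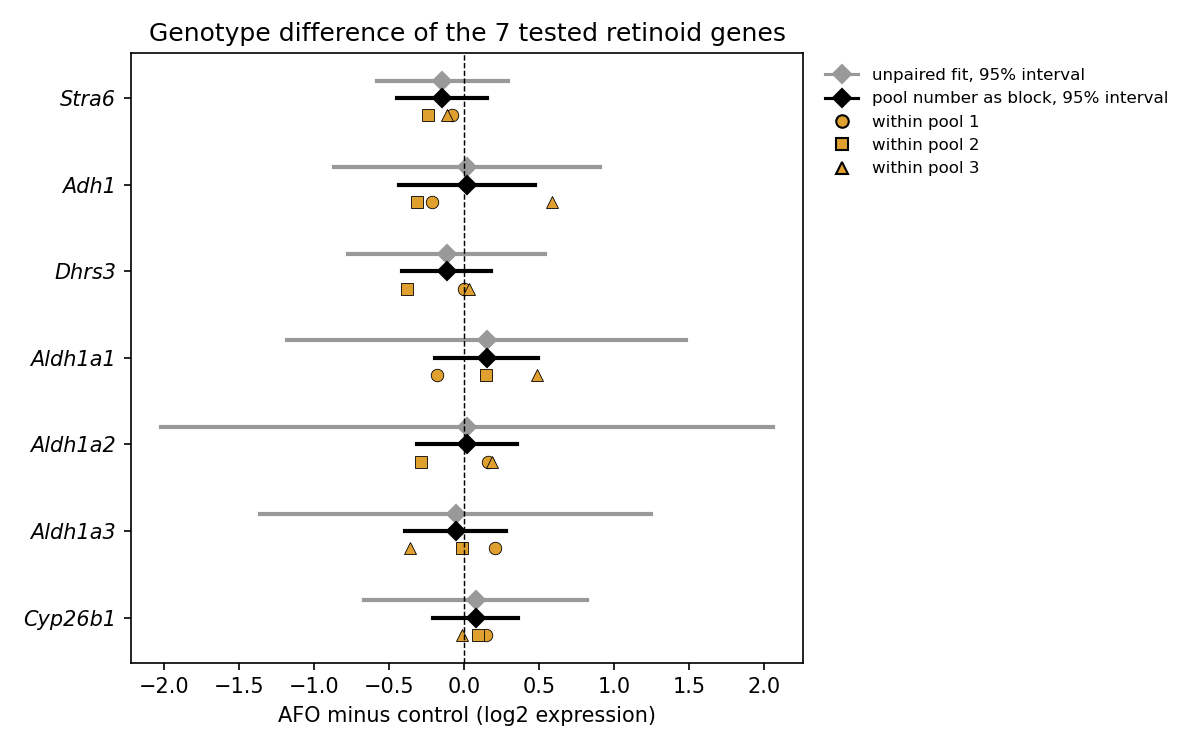
AFO minus control difference in log2 expression for the 7 tested retinoid genes, with diamonds and bars for the estimate and 95% interval of the unpaired fit (grey) and of the fit blocked on pool number (black), and orange symbols for the difference within each pool. All intervals span 0. That of Aldh1a2 narrows the most, to -0.32 to 0.36 with the block.

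The shift of pool 2 can be set against all genes as a description, since the study has no such group, and no test was made of it. Aldh1a1, Aldh1a2 and Aldh1a3, 3 of the 7 tested retinoid genes, stood at least 1 log2 unit below the mean of pools 1 and 3 in both genotypes, where 2.42% of all genes tested did. None stood that far above it in both, where 2.07% of all genes did. Being lowest in pool 2 of both genotypes was common (35.8% of all genes, against 5 of the 7 retinoid genes), as was being highest (21.3%, against 2 of 7). Markers of other cells moved with these values. All 7 visceral fat markers were at least 1 log2 unit lower in pool 2 of both genotypes (medians -3.50 in AFO and -3.71 in control), as were 7 of 10 mesothelial markers (mean level 4.85 in pool 2 and 8.31 and 8.36 in the other AFO pools, 5.80 in pool 2 and 8.20 and 8.11 in the other control pools). Wt1, Bnc1, Msln and Upk3b stand in both of these lists, so the counts share genes. Endothelial markers (medians -0.623 in AFO and -0.57 in control) and stromal progenitor markers (-0.465 and -0.477) were lower in pool 2 by less. All 9 tested skeletal muscle markers were at least 1 log2 unit higher in pool 2 of both genotypes, as were 4 of 5 tested B cell and 5 of 6 tested T cell markers. The muscle signal was not limited to pool 2: its mean level was 9.36, 11.68 and 4.71 in AFO pools 1, 2 and 3, against 4.99, 9.23 and 4.66 in control pools 1, 2 and 3. AFO pool 1 was thus high in muscle markers too. Of the 8 adipocyte markers 0 were at least 1 log2 unit lower, and 0 higher, in both genotypes (medians -0.18 in AFO and 0.0062 in control). The part of these cells in the retinoid values was not tested.

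**Figure D3:**
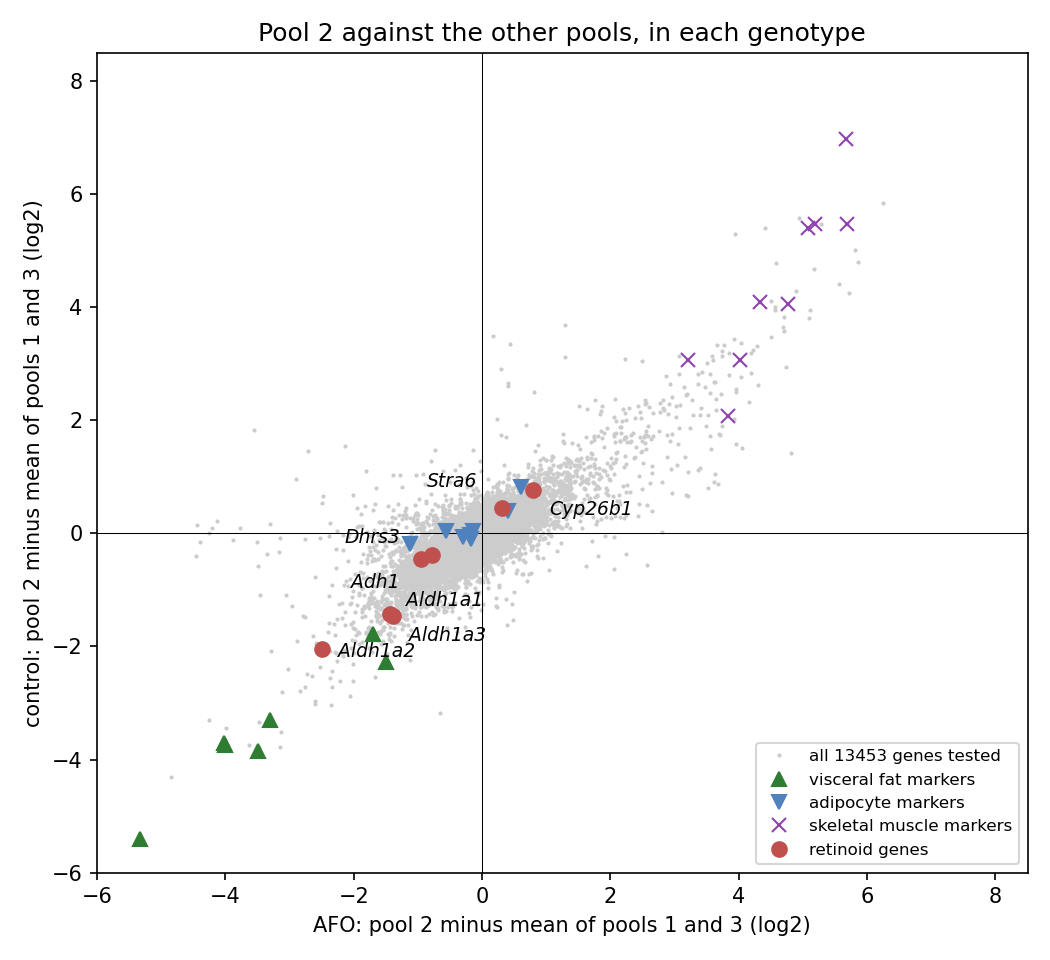
Pool 2 minus the mean of pools 1 and 3 in log2 expression, in AFO (horizontal) and in control fat (vertical), for all 13453 genes tested (grey), the 7 retinoid genes (red) and marker genes of visceral fat, adipocytes and skeletal muscle. The 3 Aldh1a genes lie at the lower left, on the side of the visceral fat markers, and Aldh1a2 (-2.50 and -2.05) reaches among them, while Cyp26b1 (0.79 and 0.76) lies on the side of the muscle markers.

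Genes with the most similar profile over the 6 arrays were sought for the 4 retinoid genes that spanned at least 1 log2 unit, by the root mean square difference of values centred on each gene's mean. Aldh1a3 was closest to Hoxa5, a homeobox transcription factor (root mean square difference 0.035 log2 units), which read 7.45, 5.95 and 7.19 in AFO and 7.23, 5.86 and 7.51 in control pools 1, 2 and 3, and then to Gab2, a signalling adaptor (0.069). Aldh1a2 was closest to Mgp, the matrix Gla protein that inhibits calcification (0.118), and Sfrp1, a secreted Wnt antagonist (0.145). Aldh1a1 was closest to Crym, a thyroid hormone binding protein (0.115), and Foxc1, a forkhead transcription factor (0.132). Adh1 was closest to Pld1, a phospholipase D (0.0926), and Clip3 (0.10). Of the other genes, 6.63% lay within 0.3 of Adh1, 3.00% of Aldh1a3, 1.66% of Aldh1a1 and 0.253% of Aldh1a2, so few genes shared the wide span of Aldh1a2. Among the retinoid genes the closest pair was Stra6 and Cyp26b1 (0.243), followed by Aldh1a1 and Aldh1a3 (0.290), and the farthest was Aldh1a2 and Cyp26b1 (1.44).

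The rest of the retinoid pathway was read from 7 lists of other genes, and none of these genes passed either. The lists name 57 genes, of which 41 could be tested and 11 were too dim, while 5 were not analysed here. None passed by limma without pairing or with pool number as a block, where 0% and 0.0149% of all genes did, and 1 of the 41 had an unadjusted p under 0.05 without pairing and 5 with the block, where 1.03% and 4.32% of all genes did. Of the 41 genes 34 were lower and 7 higher in AFO fat, with a median of -0.12, beside 7300 lower and 6153 higher of all genes tested. Without both pool 2 arrays 28 were lower and 13 higher, with a median of -0.054. Leaving out 1 of these arrays alone unbalances the pools: without AFO pool 2, 21 were lower and 20 higher (median -0.0020), and without control pool 2, 36 were lower and 5 higher. The 8 tested adipocyte markers were lower as well (8 of 8, median -0.21). Lipe is counted both among them and among the pathway genes. The part of adipocyte markers in the pathway result was not tested.

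Carriers included Rbp4, the plasma carrier of retinol that fat also secretes, at -0.18 (SE 0.41), Rbp7, a cellular retinol-binding protein, at -0.36 (SE 0.63), Fabp5, a fatty acid-binding protein that can carry retinoic acid, at -0.12 (SE 0.17), and the lipoprotein receptor Scarb1 at -0.047 (SE 0.20). All 5 tested carriers were lower in AFO fat, as were 7300 of all 13453 genes tested, and 0 passed. Without both pool 2 arrays Rbp4 (0.060) and Scarb1 (0.057) were higher in AFO fat, and the other tested carriers stayed lower. With no filter, the carriers too dim to be tested were higher in AFO fat (Crabp1 1.04, Rbp2 0.12 and Stra6l 0.155). Rbp7 read 10.88, 8.76 and 10.28 in AFO pools 1, 2 and 3, against 10.85, 9.36 and 10.81 in control pools 1, 2 and 3, so it too was lowest in pool 2 of both genotypes. Of 11 tested redox enzymes of retinol and retinal 8 were lower and 3 higher, among them the retinol saturase Retsat at -0.24 (SE 0.18) and the retinol dehydrogenase Rdh14 at 0.19 (SE 0.19). The aldehyde oxidase Aox1 differed by -0.17 (SE 0.21) and the reductase Dhrs4 by -0.076 (SE 0.16). Of carotenoid cleavage only Bco2 was tested (-0.068, SE 0.18), and of the other Cyp26 enzymes Cyp26a1 (-0.16, SE 0.18).

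All 5 tested enzymes that make or split retinyl esters were lower in AFO fat, as were 7300 of all 13453 genes tested, and 0 passed. Dgat1, an acyltransferase that esterifies retinol as well as diglyceride, read 10.66, 10.27 and 10.16 in AFO pools 1, 2 and 3, against 10.69, 10.66 and 10.76 in control pools 1, 2 and 3. It was 1 of 2 among the 41 tested pathway genes whose genotypes did not overlap (3.50% of all genes tested did not), narrowly so, since AFO pool 1 and control pool 2 are level at 2 decimals, with a difference of -0.34 (SE 0.16, limma adjusted p 0.999999). Lipe, the hormone-sensitive lipase that also hydrolyses retinyl esters, differed by -0.34 (SE 0.23), the carboxylesterase Ces1d by -0.20 (SE 0.17) and Lpl by -0.15 (SE 0.11). In the list of 7 receptors 4 were lower and 3 higher. It holds the retinoic acid and retinoid X receptors and also Ppard, a peroxisome proliferator-activated receptor, which was among the higher ones (0.038, SE 0.20). Rxrg, a retinoid X receptor, differed by -0.39 (SE 0.33), Rxra by -0.16 (SE 0.20) and Rxrb by 0.15 (SE 0.17). Rarb, a receptor whose own gene answers to retinoic acid, differed by 0.067 (SE 0.12) and was nearly level on all arrays, from 5.77 to 5.95 in AFO and 5.72 to 5.80 in control fat.

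Of 13 tested genes that respond to retinoic acid 11 were lower and 2 higher in AFO fat, with a median of -0.16, and 0 passed. Of all 13453 genes tested 7300 were lower. Hoxa5, counted as lower, was level (-0.00045). Without both pool 2 arrays Pck1 (0.067) and Rarres2 (0.0016) turned higher, and the signs of the other genes stayed. Nrip1, a nuclear receptor corepressor, read 9.66, 9.35 and 8.69 in AFO pools 1, 2 and 3, against 9.94, 9.87 and 9.73 in control pools 1, 2 and 3. It was the other tested pathway gene whose genotypes did not overlap, with a difference of -0.61 (SE 0.25, unadjusted p 0.0471, limma adjusted p 0.999999, and 0.990 with the block). Without both pool 2 arrays Nrip1 differed by -0.66, with a limma adjusted p of 0.0645 with the block (SE 0.18), so it did not pass there either, nor unpaired. Meis2, a homeobox transcription factor, differed by -0.49 (SE 0.39) and Stra8, a germ cell gene, by -0.21 (SE 0.15). Ucp1, the uncoupling protein of brown and beige fat, read 4.41, 9.22 and 4.41 in AFO pools 1, 2 and 3, against 4.54, 5.79 and 4.20 in control pools 1, 2 and 3. Its difference of 1.17 (SE 1.32, limma adjusted p 0.999999) came from AFO pool 2, and without the pool 2 arrays it was 0.038. Hoxa5, Meis1, Rarres1, Rbp7 and the aldehyde oxidase Aox3 were the 5 of 41 pathway genes at least 1 log2 unit lower in pool 2 of both genotypes, where 2.42% of all genes were, and they are named because of that count, after their values were seen.

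**Figure D4:**
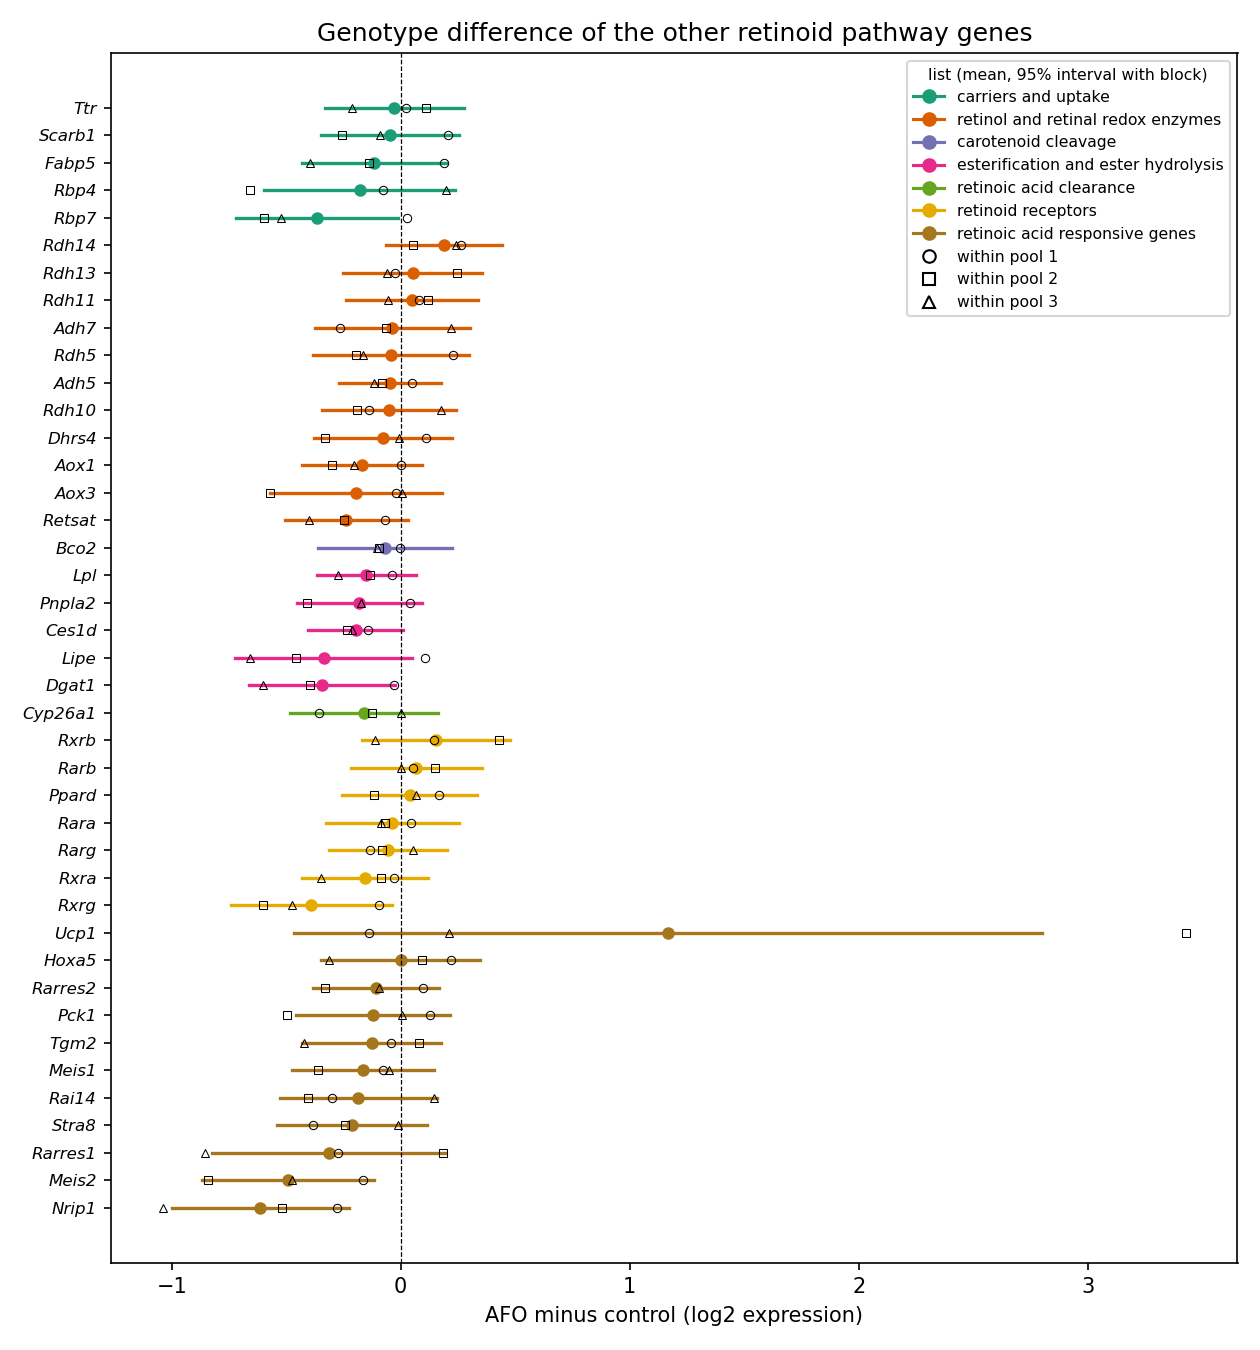
AFO minus control difference in log2 expression of the 41 other tested retinoid pathway genes, coloured by list, with the estimate and its 95% interval from the fit blocked on pool number and open symbols for the difference within each pool. Of these genes 34 lie below 0, and Nrip1 (-0.61) and Ucp1 (1.17, with pool 2 at 3.43) lie farthest out. A gene of 2 lists is drawn once.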

How the data were processed

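Total RNA of 6 pools of white fat was turned into biotinylated cRNA and read on 3' expression arrays, per the labels' protocols. The values that the authors deposited are log2 levels, made by RMA with Affymetrix Expression Console 1.4, per the submitters' processing notes. How many mice went into a pool is not given in the sources used here.

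Of 45101 probe sets, 34945 had 1 gene symbol in the platform annotation, 932 had several, 9160 were not listed and 64 were controls; only the first kind was named and tested. Probe sets with a mean at or above the 40th percentile of the non-control probe sets (4.88) were kept, and each gene was read from its brightest one, which left 13453 genes. The genotypes were compared, unpaired, with limma 3.58.1 under R 4.3.3 (empirical Bayes with a mean-variance trend, Benjamini-Hochberg adjustment over all genes tested, called at an adjusted p under 0.05). The fit was tested on simulated data that held independent noise on each array and no shift shared by a pool. How it handles such a shift was therefore not tested.

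Groups and pool numbers came from the sample titles. Across genes, which are not independent, the AFO and control deviations from their means were correlated between arrays of equal number. The correlation was 0.594 in pool 1, 0.799 in pool 2 and 0.589 in pool 3. For the block the numbers were taken as pairing the arrays, although what a number stands for is not stated. Deviations cancel out within a genotype, so the shared shift of pool 2 alone makes pools 1 and 3 correlate. The values of pools 1 and 3 are thus weak ground for pairing them. AFO pool 1 with control pool 3 (0.362) and AFO pool 3 with control pool 1 (0.441) correlated too.

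The members, lists, naming rule and alternatives were chosen with earlier results of these data known. Named were the 9 genes, up to 4 genes of each pathway list by smallest unadjusted p, genes whose genotypes did not overlap, and the 2 closest profiles of each gene spanning at least 1 log2 unit. Ucp1 did not meet this rule and was named with its values known. Fits of unfiltered single probe sets, and of unfiltered genes with the block, were added after seeing the data. Promoter letters are from RefSeq (GRCm38.p6).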

Additional observations from a re-analysis of the deposited data

How the results depend on the processing

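The count of 0 retinoid genes and 0 other pathway genes passing held under each of the 20 alternatives: a filter dropped or raised to the 60th percentile, median centring or quantile normalisation, 3 ways of choosing probe sets, array weights, robust empirical Bayes or one with no trend, the replicate block, single arrays omitted, both pool 2 arrays left out with and without the block, and an adjusted p under 0.10. Over all genes the count moved from 0 (139 at an unadjusted p under 0.05, by limma) to 2 with the replicate block, 91 without both pool 2 arrays and 270 without them and with the block, and leaving out single arrays gave 0 to 27, the 27 without AFO pool 2. In these fits the genes tested were those of the filter over all 6 arrays.

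The member differences, none of which passed, kept their sign in 147 of 167 alternatives. Many of these cannot move the estimate, such as the fits with no trend, with robust empirical Bayes or with the block. Leaving out 1 array at a time turned a sign 16 times over the 7 tested genes. Array weights turned Aldh1a1 to -0.18 and Aldh1a2 to -0.045, and omission of both pool 2 arrays turned Dhrs3 to 0.015 with and without the replicate block. Leaving out single arrays gave -0.25 to 0.0050 for Stra6, -0.39 to 0.33 for Adh1, -0.33 to 0.14 for Dhrs3, -0.33 to 0.63 for Aldh1a1, -0.66 to 0.85 for Aldh1a2, -0.54 to 0.41 for Aldh1a3 and -0.18 to 0.33 for Cyp26b1. The block left these differences unchanged by construction, and changed no call of a retinoid gene. Leaving out 1 pool 2 array alone unbalances the pools, which shifts the difference of a gene that differs between pools. Aldh1a2 thus went to 0.85 without AFO pool 2 and to -0.66 without control pool 2. Nothing further about the sign changes was tested. Signal over background limits Crabp2, Lrat and Stra6.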

Other observations

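Crabp1 and Rdh16, pathway genes below the filter, were high on 1 or 2 AFO arrays and low elsewhere. Crabp1, a second carrier of retinoic acid, read 5.29, 3.39 and 4.57 in AFO pools 1, 2 and 3, against 3.41, 3.24 and 3.50 in control pools 1, 2 and 3. Rdh16, a retinol dehydrogenase, read 5.88, 3.88 and 4.08 in AFO pools 1, 2 and 3, against 3.70, 3.58 and 3.36 in control pools 1, 2 and 3. Its genotypes did not overlap, but only AFO pool 1 lay above the filter value of 4.88. Of the genes above the filter 3.50% did not overlap, and the share below it was not counted. With no filter Crabp1 and Rdh16 differed by 1.04 (SE 0.44) and 1.07 (SE 0.51), with a limma adjusted p of 0.999979 for both. The mean level of 5 tested markers of epididymal epithelium was 8.97, 5.29 and 6.65 in AFO pools 1, 2 and 3, against 5.35, 5.31 and 4.90 in control pools 1, 2 and 3. Their part in these 2 genes was not tested, and both genes were singled out after their values were seen.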
